A study of Mus musculus with 7 samples.

Results

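The genes described here encode proteins that hold synapses together across the cleft: the neurexins Nrxn2 and Nrxn3, the neuroligins Nlgn1, Nlgn2 and Nlgn3, the gephyrin gene Gphn, and the inhibitory synapse genes Slitrk3 and Lhfpl4. They were chosen by symbol, and all 8 had a row among the 39017 Ensembl gene IDs of the count table and passed the filter on low counts. RNA was sequenced from the hippocampus of mice with Cre recombinase driven by Gad2, crossed to mice carrying an EGFP-tagged ribosomal protein L10 (L10-EGFP). The tag allows ribosomes of the Cre-expressing cells to be pulled down with the RNA they are translating (translating ribosome affinity purification, TRAP). The bound group holds 3 libraries of pulled-down RNA, with titles that start with GAD_ctrl, and the unbound group holds 4 libraries, with 2 titles each that start with UBS (replicates 1 and 2) and UBGS (replicates 3 and 4). Per the design text, each TRAP sample combined 2 hippocampi. The sources used here do not give age, sex, any treatment or the meaning of the title prefixes. They also do not say whether bound and unbound RNA came from the same tissue or each library from separate mice, so p-values rest on a spread that may be partly technical.

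Neurexins sit mainly on the presynaptic membrane and bind neuroligins and other partners on the postsynaptic side. Neuroligin 1 is known from excitatory synapses, neuroligin 2 from inhibitory synapses, and neuroligin 3 from both. At inhibitory synapses neuroligin 2 recruits gephyrin, a scaffold that holds GABA-A and glycine receptors in place, and Lhfpl4 (also called GARLH4) is a membrane protein that links GABA-A receptors to neuroligin 2. Slitrk3 is a postsynaptic adhesion protein of inhibitory synapses that binds the presynaptic phosphatase PTPδ. A GABAergic neuron can make these proteins for its own axon and for the synapses it receives, and RNA from tagged ribosomes holds both.

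Library totals ran from 38690380 to 51953811 counts, and the members were covered by 1317 to 35152 counts per library, so the spread between libraries and not counting error set the precision. Levels are given as CPM, counts scaled to a common library size by TMM, a method that takes most genes as unchanged. The 3 GABAergic markers (Gad1, Gad2, Slc32a1) were all higher in bound libraries, summing to 1442 to 1576 CPM against 193.2 to 278.8 CPM. All 4 excitatory neuron markers (Slc17a7, Neurod2, Neurod6, Camk2a) were lower in bound libraries, at a sum of 751.3 to 950.7 CPM against 3560 to 5656 CPM. Astrocyte (4), oligodendrocyte (4) and precursor (3) markers were all lower in bound libraries, by sum 160.6 to 178.6 against 1772 to 2629 CPM, 244.9 to 298.5 against 913.4 to 1055 CPM, and 8.58 to 12.5 against 71.1 to 83.7 CPM. All 4 microglia markers were higher, at a sum of 132.4, 341.1 and 115.8 CPM in bound replicates 1 to 3 against 39.2 to 52.9 CPM, with no marker of any list at 0. Of 4 endothelial and mural markers, 3 were lower and none higher, at 16.1 to 29.6 against 95.2 to 106.3 CPM. The 2 groups differ in the kind of RNA, captured on tagged ribosomes or not, as well as in the cells it came from. Every difference between the groups, here and below, mixes both, and no test separated them. It is therefore not a measure of cell number or of RNA per cell alone. The part of other cell types in the results below was not tested.

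Of the 8 genes, 4 were higher in bound libraries (Nrxn3, Nrxn2, Nlgn2, Lhfpl4), 2 were lower (Nlgn1, Slitrk3) and 2 did not pass the test (Nlgn3, Gphn), with edgeR's quasi-likelihood test at an adjusted p under 0.05. The members thus did not all move in 1 direction. Across all 19563 genes tested, 61.7% were called, 31.0% higher and 30.7% lower, so a call in either direction is common in this comparison. Neither the 6 of 8 nor their split by direction is a result about the set. For 5 of the 8 genes the ranges of the groups were separate, as for 63.3% of all genes. Against a 1.5-fold minimum (edgeR glmTreat), 35.0% of all genes passed, and of the 6 called members all but Lhfpl4 did. The median log2 difference was 0.12 over the 8 genes and −0.01 over all genes tested. Directions are relative to TMM scaling: with library totals in its place the median of all genes moved to 0.43. Mitochondria-encoded genes took 28.5% to 32.9% of counts in the unbound libraries and 0.0867% to 0.123% in the bound ones, and their part in that shift was not tested.

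**Figure D1:**
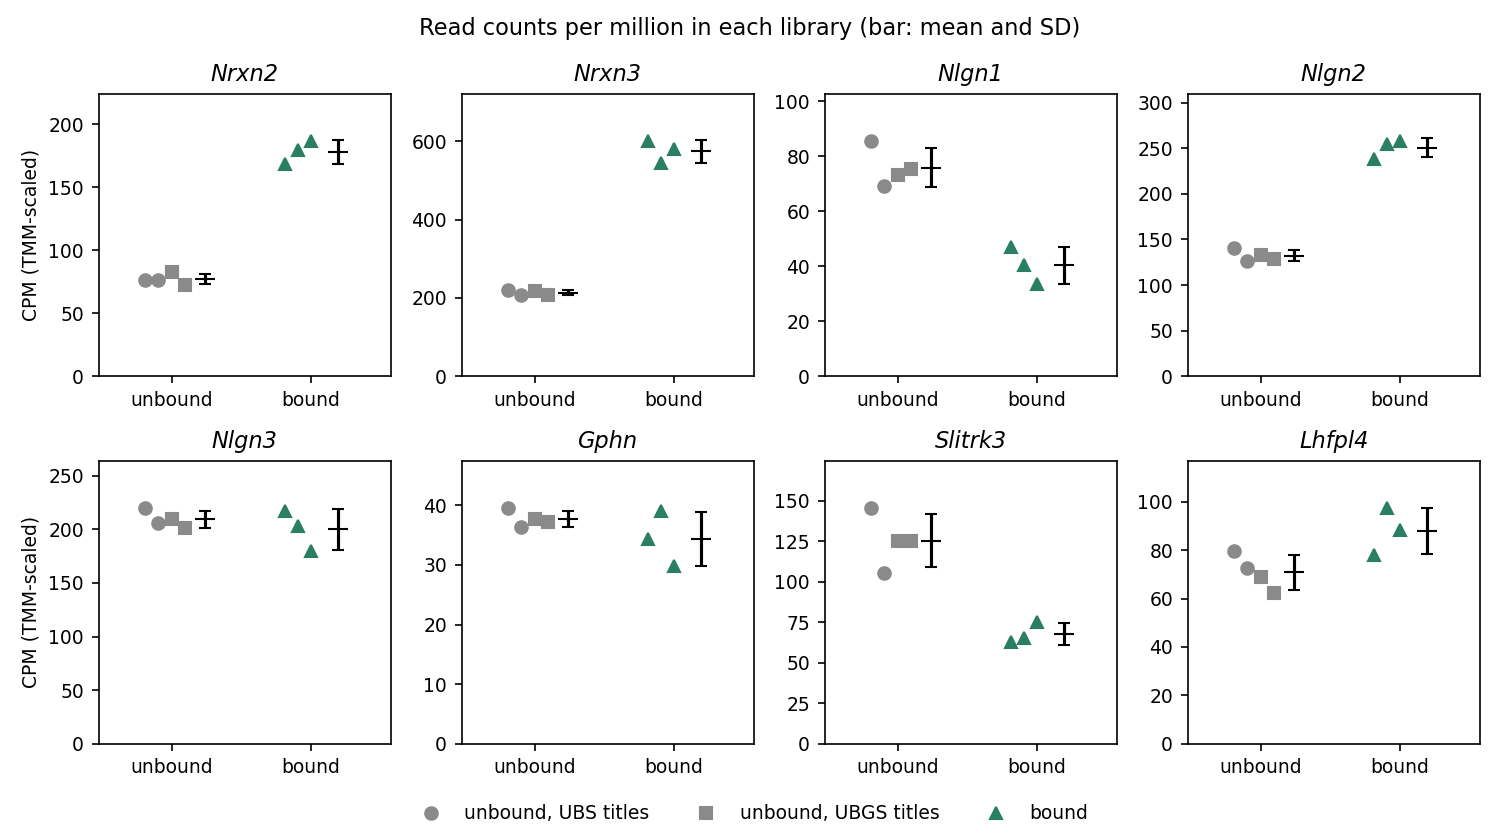
Each panel shows 1 gene, with TMM-scaled CPM on the vertical axis from 0, 4 unbound libraries in grey (circles UBS, squares UBGS), 3 bound libraries as green triangles, and the mean with SD as a black bar. Nrxn2, Nrxn3 and Nlgn2 lie higher and Nlgn1 and Slitrk3 lower in every bound library, while the groups overlap for Nlgn3, Gphn and Lhfpl4.

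The presynaptic neurexins showed the highest differences among the members. Nrxn3 (ENSMUSG00000066392, chromosome 12 from 88722876 to 90334935 on mm10) stood at 601.9, 543.4 and 579.9 CPM in bound replicates 1 to 3. Its unbound replicates 1 to 4 were at 219.0, 208.2, 217.9 and 207.2 CPM. The lowest bound library was thus far above the highest unbound one, and the unbound libraries of both title series were alike. The difference was 2.70-fold (575.1 ± 29.5 CPM, SD, n = 3, against 213.1 ± 6.22 CPM, SD, n = 4; log2 1.43, SE 0.06, edgeR adjusted p = 1.64e-08).

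Nrxn2 (ENSMUSG00000033768, chromosome 19 from 6418731 to 6544169) stood at 168.1, 179.4 and 186.9 CPM in bound replicates 1 to 3. In unbound replicates 1 to 4 it was at 76.3, 76.6, 82.5 and 72.7 CPM. All bound libraries were higher than all unbound ones, a pattern shared by 31.7% of all genes tested. The difference was 2.31-fold (178.1 ± 9.43 against 77.0 ± 4.05 CPM; log2 1.21, SE 0.07, edgeR adjusted p = 1.13e-07). Both neurexins have long transcripts, with 13812 nucleotides of merged exons in Nrxn2 and 12605 in Nrxn3. Of the 2672 protein-coding genes tested with at least 8000 nucleotides, 15.9% were higher and 57.7% lower in bound libraries, at a median log2 difference of −0.49. An offset for exon length raised the differences to log2 1.85 for Nrxn2 and 2.02 for Nrxn3.

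Counts can be compared between genes of a family as ratios within a library, which do not depend on how libraries are scaled. Nrxn3 had 3.58, 3.03 and 3.10 counts per Nrxn2 count in bound replicates 1 to 3. In unbound replicates 1 to 4 the ratio was 2.87, 2.72, 2.64 and 2.85. The ratio was 1.17-fold higher in bound libraries (log2 0.22), without overlap between the groups, so Nrxn3 led Nrxn2 in both kinds of RNA by counts. Of 4 ratios computed within the neurexin and neuroligin families, each gave a two-sided exact permutation p of 0.0571, the smallest that 3 against 4 libraries allow, and 0.0571 after Benjamini-Hochberg adjustment.

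Of the 3 neuroligins, Nlgn2 was higher in bound libraries, Nlgn1 lower and Nlgn3 not called. Nlgn2 (ENSMUSG00000051790, chromosome 11 from 69823122 to 69837784) was at 238.6, 255.2 and 258.4 CPM in bound replicates 1 to 3. Unbound replicates 1 to 4 were at 140.8, 126.4, 133.5 and 128.8 CPM. No unbound library came near the bound ones, and the difference was 1.89-fold (250.8 ± 10.7 against 132.4 ± 6.34 CPM; 95% interval of the log2 difference 0.78 to 1.07, edgeR adjusted p = 4.86e-07). Its exons share no base with another annotated gene, so its counts carry no ambiguity of that kind.

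Nlgn1 (ENSMUSG00000063887, chromosome 3 from 25426215 to 26332460) had the lowest level of the family and was lower in bound libraries. It was at 47.0, 40.5 and 33.5 CPM in bound replicates 1 to 3, against 85.7, 69.1, 73.3 and 75.4 CPM in unbound replicates 1 to 4. The bound libraries all lay under the unbound ones, a pattern shared by 31.6% of genes tested. The difference was 1.88-fold (40.4 ± 6.79 against 75.9 ± 7.05 CPM; log2 −0.91, SE 0.12, edgeR adjusted p = 5.58e-05). It shrank to log2 −0.285 with the exon length offset (edgeR adjusted p = 0.0445) and to −0.47 with library totals, and it passed the threshold in both.

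Nlgn3 (ENSMUSG00000031302, chromosome X from 101299168 to 101325963) did not pass the test. Bound replicates 1 to 3 held 217.2, 202.8 and 179.9 CPM, and unbound replicates 1 to 4 held 219.8, 206.0, 209.5 and 201.7 CPM. The groups overlapped, and the 95% interval of the log2 difference was −0.23 to 0.10 (edgeR adjusted p = 0.476). The sign turned with the setting: the log2 difference was 0.37 with library totals and 0.34 with the exon length offset, both past the threshold, and 0.0066 without bound replicate 3. The value with library totals lies below the shift of 0.43 that this scaling gave the median gene. With the offset the median gene stood at 0.01. Of its exon length, 41.2% is shared with Gm21986, a transcript on the same strand that also overlaps Med12, and the sources used here do not say how reads in the shared part were assigned. Gm21986 itself averaged 135.6 ± 11.2 CPM on the bound side and 117.4 ± 5.18 CPM on the unbound side (log2 0.21, SE 0.07), so the level of Nlgn3 is uncertain.

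Within a library, counts of Nlgn2 per Nlgn1 count were 5.07, 6.30 and 7.72 in bound replicates 1 to 3 and 1.64, 1.83, 1.82 and 1.71 in unbound replicates 1 to 4. This ratio was 3.59-fold higher in bound libraries (log2 1.84). Nlgn2 per Nlgn3 was 1.99-fold higher (log2 0.99) and Nlgn3 per Nlgn1 1.80-fold higher (log2 0.85), without overlap between the groups. Neither these ratios nor the shares below correct for the dependence of the group difference on exon length. Merged exons hold 5785 nucleotides in Nlgn2, 13422 in Nlgn1 and 9271 in Nlgn3. With the exon length offset their log2 differences were 1.13, −0.285 and 0.34 in that order. Per kilobase of exon, which allows levels of different genes to be set side by side, Nlgn2 and Nlgn3 took nearly equal parts of the neuroligin sum in unbound libraries, at 44.8% ± 0.30 and 44.2% ± 0.690 (SD, n = 4), with the full exon length of Nlgn3. In bound libraries Nlgn2 led at 63.8% ± 3.30, with Nlgn3 at 31.7% ± 2.61 and Nlgn1 at 4.42% ± 0.698, against 11.0% ± 0.580 for Nlgn1 in unbound libraries. If no read from the exons shared with Gm21986 was counted, the length of Nlgn3 would be 5448 nucleotides. On that length Nlgn3 would take 57.4% and Nlgn2 34.2% of the sum in unbound libraries, and 44.1% and 52.2% in bound libraries, so whether Nlgn2 or Nlgn3 led in unbound libraries depends on how those reads were assigned.

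**Figure D2:**
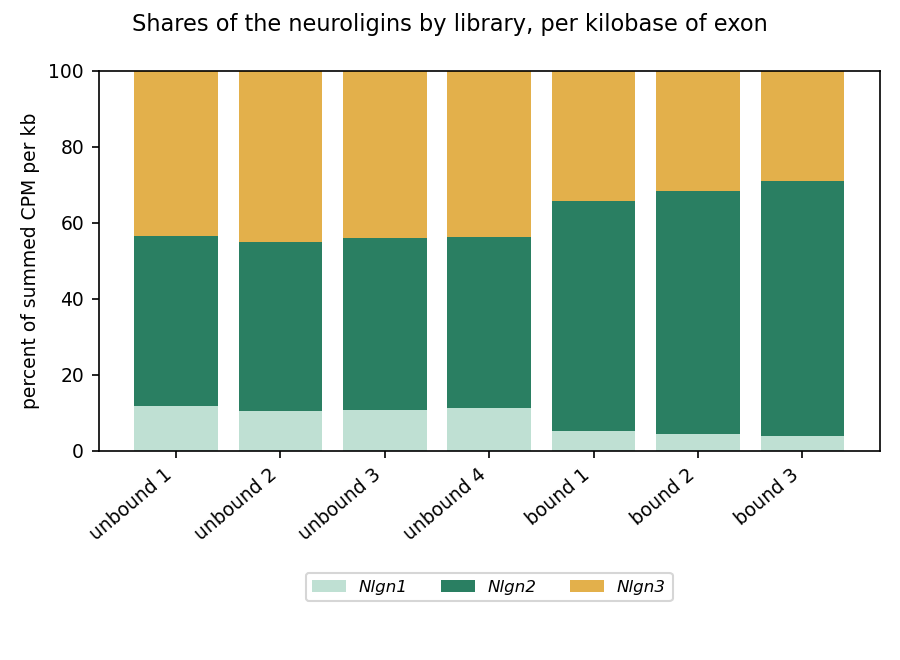
Stacked bars give, for each of the 7 libraries, the percent of the summed neuroligin CPM per kilobase of merged exons taken by Nlgn1, Nlgn2 and Nlgn3. Nlgn2 takes 63.8% on average in bound libraries, against 44.8% in unbound libraries, with the full exon length of Nlgn3.

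Among the inhibitory postsynaptic genes, Lhfpl4 was slightly higher, Gphn was not called and Slitrk3 was lower. Lhfpl4 (ENSMUSG00000042873, chromosome 6 from 113168090 to 113195384) was at 78.2, 97.5 and 88.5 CPM in bound replicates 1 to 3 and 79.5, 72.6, 69.0 and 62.5 CPM in unbound replicates 1 to 4. Bound replicate 1 lay under unbound replicate 1, so the groups overlapped. The difference was 1.24-fold (88.0 ± 9.64 against 70.9 ± 7.12 CPM; log2 0.31, SE 0.10, edgeR adjusted p = 0.0178). The call was lost with the UBS libraries alone (log2 0.21, edgeR adjusted p = 0.175), without bound replicate 2 (0.24, edgeR adjusted p = 0.0775), and without unbound replicate 4 (0.26, edgeR adjusted p = 0.0537). Bound replicate 2 had the highest Lhfpl4 level and also the most microglia marker RNA, and a link between these was not tested.

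Gphn (ENSMUSG00000047454, chromosome 12 from 78226379 to 78684772) held 34.3, 39.0 and 29.9 CPM in bound replicates 1 to 3, against 39.5, 36.3, 37.8 and 37.2 CPM in unbound replicates 1 to 4. The bound libraries spread to both sides of the narrow unbound range. The 95% interval of the log2 difference ran from −0.36 to 0.09 (34.4 ± 4.57 against 37.7 ± 1.35 CPM, edgeR adjusted p = 0.279). With library totals the difference was 0.31 and past the threshold (edgeR adjusted p = 0.0292), below the shift of 0.43 that this scaling gave the median gene.

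Slitrk3 (ENSMUSG00000048304, chromosome 3 from 73047265 to 73057803) was at 62.9, 65.1 and 75.2 CPM in bound replicates 1 to 3 and 145.4, 105.4, 124.9 and 125.1 CPM in unbound replicates 1 to 4. The bound libraries were all lower, by 1.85-fold (67.7 ± 6.55 against 125.2 ± 16.3 CPM; log2 −0.89, SE 0.11, edgeR adjusted p = 3.6e-05). With library totals the difference was −0.45 and still past the threshold. All 8 genes are annotated as protein-coding, and each value is given per gene, with transcripts not told apart. Whether reads in exons shared with other genes were counted is not known. Exons of Nrxn2, Nrxn3, Nlgn1 and Gphn share 6.44%, 3.48%, 9.16% and 3.92% of their length with genes on the opposite strand, and those of Slitrk3 and Lhfpl4 share none.

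**Figure D3:**
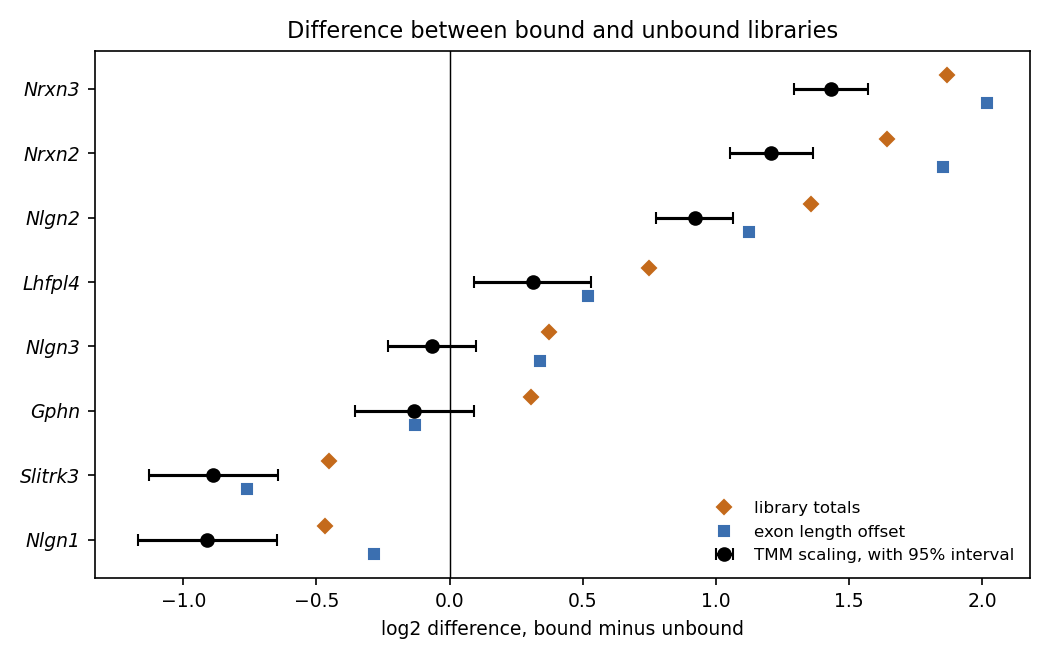
Points give the log2 difference of bound minus unbound libraries for the 8 genes, in black with its 95% interval under TMM scaling, as orange diamonds with library totals and as blue squares with the exon length offset. Nrxn3, Nrxn2, Nlgn2 and Lhfpl4 lie higher than 0 and Nlgn1 and Slitrk3 lower under all 3, while Nlgn3 and Gphn change side.

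The windows 250 bases upstream of the RefSeq start sites are shown for Nlgn2 and Lhfpl4, postsynaptic partners that were both higher in bound libraries, and for Slitrk3, which was lower. RefSeq (GRCm38.p6, the assembly of mm10) gave windows for 6 of the 8 genes, 9 in all, and the 3 shown overlap no exon of GENCODE M21. That of Slitrk3 lies inside the annotated gene, since its RefSeq start is downstream of the GENCODE one. Both strands were searched for the GC box, spelled GGGCGG, the E-box, spelled CANNTG, a homeodomain core, spelled TAATTA, the cAMP response element, spelled TGACGTCA, and the TATA box, spelled TATAAA. Capitals mark every match on either strand.
Nlgn2, chr11:69837785-69838034, minus strand: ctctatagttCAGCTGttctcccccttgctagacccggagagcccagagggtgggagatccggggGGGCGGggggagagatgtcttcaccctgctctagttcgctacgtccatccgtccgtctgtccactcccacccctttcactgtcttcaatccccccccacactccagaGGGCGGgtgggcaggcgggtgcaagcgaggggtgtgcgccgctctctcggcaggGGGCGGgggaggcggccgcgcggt
Lhfpl4, chr6:113195385-113195634, minus strand: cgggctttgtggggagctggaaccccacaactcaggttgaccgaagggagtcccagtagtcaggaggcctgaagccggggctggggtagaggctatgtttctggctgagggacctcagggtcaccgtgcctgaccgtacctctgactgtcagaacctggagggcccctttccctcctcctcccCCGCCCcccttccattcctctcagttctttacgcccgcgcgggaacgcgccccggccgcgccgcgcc
Slitrk3, chr3:73057067-73057316, minus strand: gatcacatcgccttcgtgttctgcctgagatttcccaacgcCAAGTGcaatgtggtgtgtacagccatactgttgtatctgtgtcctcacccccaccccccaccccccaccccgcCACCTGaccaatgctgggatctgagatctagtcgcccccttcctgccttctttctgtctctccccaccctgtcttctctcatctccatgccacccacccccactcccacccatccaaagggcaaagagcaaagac
The Nlgn2 window held 3 GC boxes and 1 E-box, with 18 CG dinucleotides and 67.6% G or C. The Lhfpl4 window held 1 GC box and 17 CG dinucleotides, at 66.4% G or C. Slitrk3 had no GC box, 2 E-boxes and 5 CG dinucleotides, at 57.6% G or C. Among all 32851 RefSeq windows of this length, 32.7% held a GC box and 66.2% an E-box, while 4.84%, 1.55% and 12.4% held the homeodomain core, cAMP response element and TATA box that none of the 3 windows had. Among the windows not shown, those of Nrxn3 (higher in bound libraries) held no GC box, at 45.6% to 60.0% G or C. Those of Nlgn1 (lower) held none either, at 43.6% to 53.6%, and that of Gphn (not called) held 1, at 77.2%. The Gphn window and the Nlgn1 window at 53.6% lie wholly within exons of GENCODE M21, unlike the 3 shown. The letter matches are common and are given as a description only.

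Per kilobase of exon, the order of levels on tagged ribosomes was Nrxn3 (45.6 ± 2.34 CPM per kilobase), Nlgn2 (43.3 ± 1.84), Nlgn3 (21.6 ± 2.03), Lhfpl4 (15.1 ± 1.66), Slitrk3 (14.0 ± 1.35), Nrxn2 (12.9 ± 0.683), Gphn (9.18 ± 1.22) and Nlgn1 (3.01 ± 0.506). The ranges over libraries overlapped for Nrxn3 with Nlgn2, for Lhfpl4 with Slitrk3 and for Slitrk3 with Nrxn2, and for no other neighbours in that order. In unbound libraries Slitrk3 stood first among the members (25.8 ± 3.37 CPM per kilobase), overlapping with Nlgn2 (22.9 ± 1.096) and Nlgn3 (22.6 ± 0.836). Nrxn3 followed (16.9 ± 0.493), then Lhfpl4 (12.2 ± 1.22), Gphn (10.1 ± 0.360), Nlgn1 (5.65 ± 0.525) and Nrxn2 (5.58 ± 0.293), the last 2 of which overlapped. The place of Nlgn3 rests on its full exon length: on the length not shared with Gm21986 it would be at 38.4 ± 1.42 CPM per kilobase in unbound libraries, first in the order, and at 36.7 ± 3.45 in bound libraries, still after Nrxn3 and Nlgn2.

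Genes with the most similar pattern were sought among 8356 protein-coding genes with a mean of at least 10 CPM, by the distance between log2 CPM profiles over the 7 libraries, each centred on its own mean. For Nlgn2 these were Thy1 (distance 0.06), Borcs8 (0.09) and Bloc1s2 (0.10). For Nrxn3 they were Fchsd2 (0.14), Pfdn1 (0.17) and Ndufb6 (0.18), and for Nrxn2 Rps19bp1 (0.11), Fau (0.12) and Mrpl43 (0.13). Nlgn1 was closest to Gria3 (0.15), an AMPA receptor subunit, and Slitrk3 to Usp12 (0.17). Gphn was closest to Eif2s3x (0.07), Nlgn3 to Mbtps1 (0.07) and Lhfpl4 to Ptms (0.13). With 7 libraries in 2 groups the distance reflects mostly the size of the difference between groups.

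Other genes of these pathways were read from 4 lists with 47 genes, all of which were tested. On the neurexin side (neurexophilins and the adaptors that bind the neurexin tail or its partners), 5 of 10 genes were higher and 4 lower, at a median log2 difference of 0.08, beside 31.0% higher and 30.7% lower over all genes tested. Nxph1, a secreted ligand of neurexins, was the highest, with 206.0, 185.9 and 206.0 CPM in bound replicates 1 to 3, against 23.7, 30.3, 29.6 and 30.2 CPM in unbound replicates 1 to 4. All bound libraries were far above the unbound ones, by 7.0-fold (log2 2.81, SE 0.10, edgeR adjusted p = 2.94e-09). The adaptor gene Apba1 (Mint1) was higher (log2 0.81, SE 0.09), and Lin7c, which joins a complex with the neurexin-binding kinase CASK, was lower (log2 −1.61, SE 0.09). Apba2 (Mint2), a relative of Apba1, was lower (25.0 ± 3.44 against 34.7 ± 2.64 CPM; log2 −0.48, SE 0.11). With library totals it stood at −0.04 and was not called (edgeR adjusted p = 0.778). The Lin7c paralogs Lin7a and Lin7b were slightly higher (log2 0.41 and 0.43).

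Of 19 other adhesion partners, which bind neurexins, neuroligins or receptor-type tyrosine phosphatases, 5 were higher, 9 lower and 5 not called (median −0.26), beside the same 31.0% and 30.7% over all genes. The balance turned with the scaling: 9 were higher and 5 lower with library totals (median 0.18), and 10 higher and 6 lower with the exon length offset (median 0.215). Over all genes tested the median was 0.43 with library totals (9285 higher, 3704 lower) and 0.01 with the offset (6047 higher, 5477 lower). Clstn3 (calsyntenin 3, a postsynaptic partner of neurexins) was higher (154.8 ± 12.0 against 51.6 ± 4.81 CPM; log2 1.59, SE 0.09). Lrrtm3, a leucine-rich repeat protein that binds neurexins, was also higher (38.4 ± 2.18 against 17.4 ± 1.31 CPM; log2 1.14). Mdga1, which binds neuroligin 2 and keeps neurexins off it, was 4.01-fold lower (10.5 ± 1.23 against 42.2 ± 2.26 CPM; log2 −2.005, SE 0.11), opposite to Nlgn2. Slitrk2, a relative of Slitrk3, was 3.51-fold lower (log2 −1.81, SE 0.10). Ptprd, which encodes the presynaptic PTPδ that Slitrk3 binds, was lower (log2 −0.58, SE 0.09). Its merged exons hold 22822 nucleotides. Of protein-coding genes with at least 8000 nucleotides, 57.7% were lower, at a median log2 difference of −0.49.

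Among 12 genes of the inhibitory postsynapse, 4 were higher, 6 lower and 2 not called (median −0.15), against 31.0% higher and 30.7% lower over all genes. This balance turned as well, to 7 higher and 4 lower with library totals (median 0.28) and 5 higher and 3 lower with the exon length offset (median 0.20). Under these settings the medians over all genes tested were 0.43 and 0.01. The list also holds genes with wider roles in neurons, such as Kif5a, a kinesin motor, and Dlgap1, a scaffold of excitatory synapses, which were both among the 6 lower. Gabarap, which binds GABA-A receptors and also works in autophagy, was 2.54-fold higher (213.7 ± 13.8 against 84.1 ± 2.81 CPM; log2 1.35, SE 0.07). Insyn2a (Fam196a in the annotation), a protein of the inhibitory postsynapse, was 2.39-fold higher (33.6 ± 1.61 against 14.1 ± 1.46 CPM). Dmd (dystrophin) and Igsf9b, an adhesion protein of inhibitory synapses, were both lower (log2 −1.35, SE 0.10, and −1.36, SE 0.15). With the exon length offset the differences were −0.36 and −0.61, both past the threshold.

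Gephyrin also carries out the last steps of molybdenum cofactor synthesis. Of 6 genes listed for the making or use of this cofactor, 1 was higher, 1 lower and 4 not called. Over all genes tested, 31.0% were higher and 30.7% lower. Mocs2 (molybdopterin synthase) was higher (69.4 ± 2.66 against 46.4 ± 2.34 CPM, log2 0.58, SE 0.07), and Mocos was lower at under 1 CPM in every library. Mocs3 and Xdh, both not called, were under 1 CPM in every library too.

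**Figure D4:**
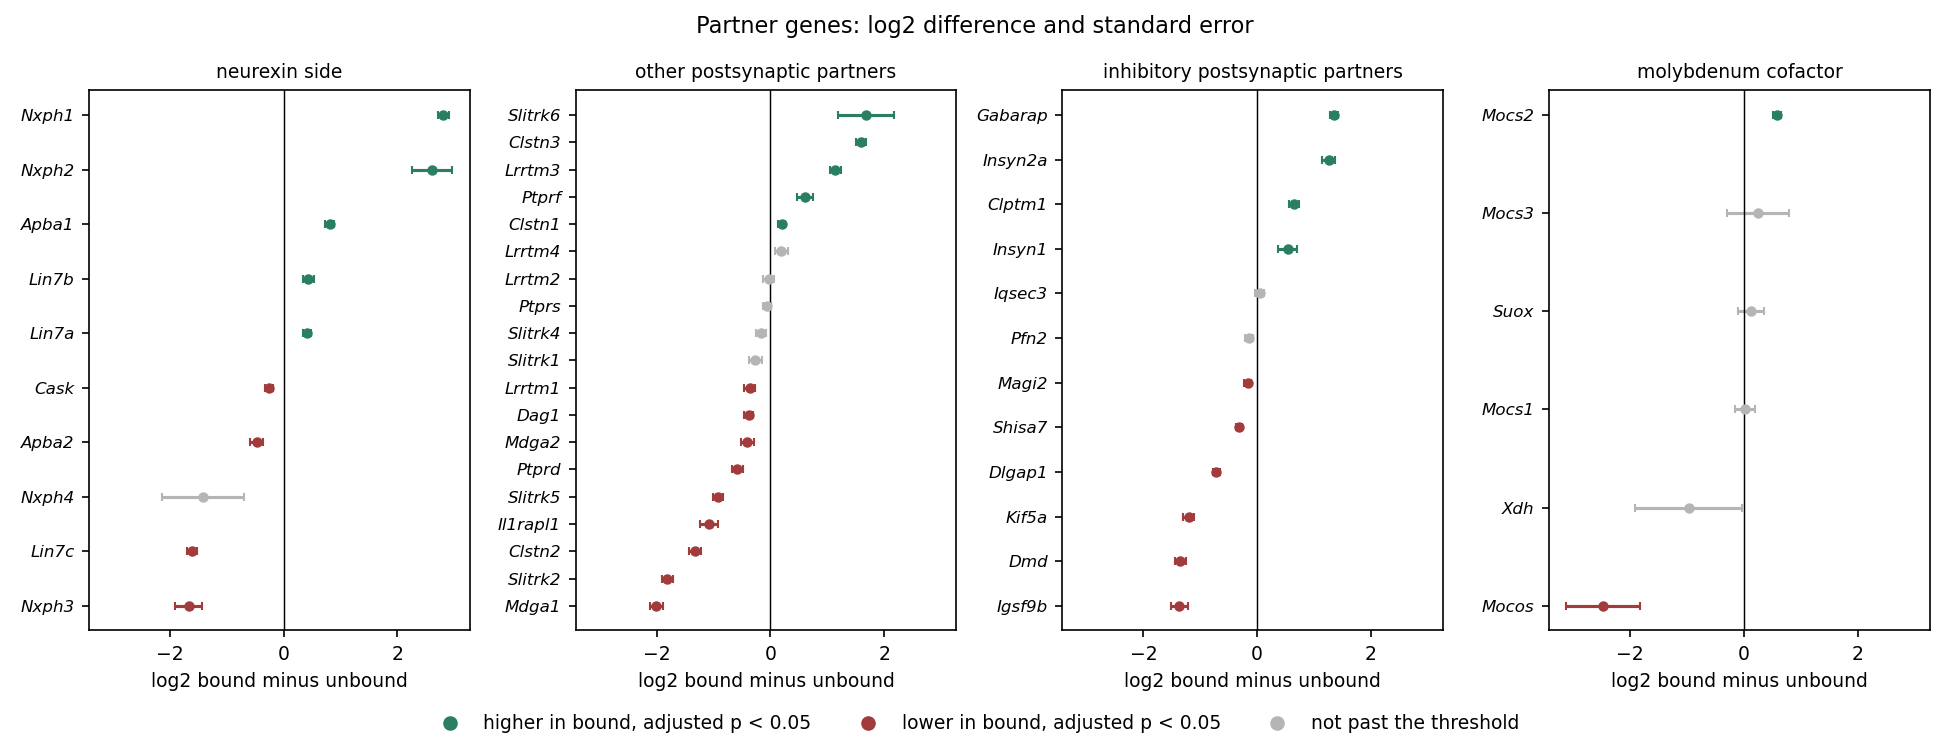
Panels show the 4 lists of partner genes, with the log2 difference of bound minus unbound libraries on the horizontal axis and the standard error as a bar, green where higher, red where lower and grey where not past an adjusted p of 0.05. Nxph1 stands highest at log2 2.81, and each of the first 3 lists holds genes on both sides of 0.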

How the data were processed

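The deposited table holds the authors' read counts per gene, not normalized. The submitters' processing notes name STAR 2.5.3a, HTSeq and mm10. The sources used here do not give the annotation release, strand setting or rule for reads that match several genes. Gene names, positions and merged exon lengths came from GENCODE M21. Counts were tested in R 4.3.3 with edgeR 4.0.16 (filterByExpr, TMM, robust glmQLFit, glmQLFTest), with Benjamini-Hochberg adjustment over all 19563 genes tested and a threshold of 0.05. The standard error came from the F statistic. In simulated counts of 19563 genes, 100 were changed by log2 1 and 100 by log2 2, in either direction. The test recovered 65 and 82 of these, with 10 false calls. Few genes changed there, so the simulation cannot check the scaling of data in which 61.7% of genes were called. Within-group library pairs varied by 5.57 to 46.3 times the counting variance. The lowest value was that of the UBGS pair, with the other unbound pairs at 25.0 to 39.0. Each library was treated as its own sample, although these values cannot show that libraries came from separate mice. The members and lists were chosen with earlier results of these data known. Some items are not reported here and were left out of the lists and shares. Named from each list were the 2 highest and 2 lowest called genes with a mean of at least 10 CPM. Lin7a, Lin7b, Ptprd, Kif5a, Dlgap1, Mocos, Mocs3 and Xdh were named after their values were seen. Alternatives were library totals, TMM without mitochondria-encoded genes and Gm42418, an exon length offset (a smooth curve per library), no filter, DESeq2 1.42.0, each unbound title series alone and each library left out. The 1.5-fold minimum (glmTreat), the transcript length, the unshared exon length of Nlgn3 and leaving libraries out of shares and ratios were added after seeing the data.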

Additional observations from a re-analysis of the deposited data

Results flagged for a closer look

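Nxph1 in unbound replicate 1 stood apart from the other unbound libraries, at 23.7 CPM against 29.6 to 30.3 CPM. Its gap to the nearest library was 0.889 of the range of the 4 libraries, above the 95% critical value of Dixon's test. Chance flags about 1 in 20 groups, and 21 genes were examined in this way. On leaving out each library in turn, the log2 difference of Nxph1 ranged from 2.75 to 2.86.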

How the results depend on the processing

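Nrxn2, Nrxn3, Nlgn1, Nlgn2 and Slitrk3 kept their direction and their call under all 15 alternatives, at log2 1.18 to 1.85, 1.40 to 2.02, −1.03 to −0.285, 0.89 to 1.36 and −0.97 to −0.45. Of the 13 partner genes chosen by the rule, each kept its direction, and 192 of 195 values kept their call, the exceptions being Mocs2 and Apba2 against a 1.5-fold minimum (0.58 and −0.48, edgeR adjusted p = 0.487 and 0.862) and Apba2 with library totals (−0.04, edgeR adjusted p = 0.778). With library totals, 9285 genes were higher and 3704 lower, Nlgn3 stood at 0.37 and Gphn at 0.31. The neurexin-side list then had 2 lower, the other adhesion partners 9 higher and 5 lower, the inhibitory postsynapse 7 higher, and the cofactor list 3 higher. With the exon length offset Nlgn3 stood at 0.34, 10 adhesion partners were higher and 3 inhibitory postsynaptic genes were lower. Lhfpl4 lost its call with the UBS libraries alone (0.21), against a 1.5-fold minimum (0.31, edgeR adjusted p = 1), without bound replicate 2 (0.24) and without unbound replicate 4 (0.26). With the UBGS libraries alone it kept it (0.44), and 0 cofactor genes were lower by edgeR. On leaving out single libraries Lhfpl4 ranged from 0.24 to 0.40 and Nlgn3 from −0.12 to 0.0066, the last without bound replicate 3. Over all alternatives the edgeR or DESeq2 adjusted p of Lhfpl4 ran from 4.48e-05 to 1. Against a 1.5-fold minimum 3246 genes were higher and 3608 lower. The lists then had 3 higher and 2 lower (neurexin side), 3 and 5 (adhesion), 2 higher (inhibitory postsynapse) and 0 higher (cofactor, edgeR glmTreat). With the longest protein-coding transcript as the length, Nlgn1 and Nlgn2 took 11.7% and 43.5% of the neuroligin sum in unbound libraries. On the unshared exon length of Nlgn3, Nlgn1, Nlgn2 and Nlgn3 took 3.61%, 52.2% and 44.1% in bound and 8.44%, 34.2% and 57.4% in unbound libraries. Leaving out 1 library moved the 4 ratios within families by less than their spread. Apart from the fewer libraries and the stricter minimum, the cause of these changes was not tested. No paired analysis was possible because the titles of bound and unbound libraries give no shared animal or replicate number. Depth did not limit the members, with at least 1317 counts each.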
